A study of Mus musculus with 6 samples.

Results

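The guanylate-binding proteins (Gbp) of the mouse were followed in haematopoietic stem cells of bone marrow. The 7 genes considered were Gbp2, Gbp2b, Gbp3, Gbp6, Gbp7, Gbp8 and Gbp9, and every probe set that the platform table pairs with 1 of these symbols and no other was taken. This gave 9 of the 45101 probe sets on the array, for 6 of the 7 genes, and no probe set was paired with Gbp9 alone. One further probe set that shares a member's symbol with another gene was not used. Of the 9 probe sets, 8 passed the filter on dim probe sets and were tested, and the single probe set of Gbp2b did not pass it.

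The knockout-labelled group consisted of 3 arrays of stem cells from Irgm1-/- mice (Lrg-47-/- in the labels), and the reference was 3 arrays of stem cells from wild-type (WT) mice. All mice were C57BL/6, 8 to 12 weeks old and specific pathogen-free, and none of the labels names an infection or treatment. The cells were sorted as the side population by Hoechst dye efflux, together with Sca-1, c-kit and lineage staining, and the RNA was amplified through T7 transcription before hybridisation. The labels do not say whether the arrays of a group came from separate mice or pools, so the tests measure the spread between arrays, which may be technical.

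Guanylate-binding proteins are large GTPases of the dynamin superfamily. Interferons, above all interferon gamma, induce most of them through STAT factors and interferon regulatory factors. The proteins assemble on the vacuoles and surfaces of intracellular pathogens and help to open them and to alert inflammasomes. Irgm1 belongs to the immunity-related GTPases, a smaller interferon-induced family that acts on the same vacuoles and whose Irgm members keep the other members inactive on the cell's own membranes. Mouse Gbp genes lie in a pair of clusters, and by the RefSeq gene table Gbp2, Gbp2b, Gbp3 and Gbp7 are on chromosome 3 and Gbp6, Gbp8 and Gbp9 on chromosome 5, whereas Irgm1 is on chromosome 11.

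The single probe set of Irgm1 gave log2 expression values of 7.68, 8.58 and 7.84 on the Irgm1-/- arrays, against 8.39, 8.57 and 8.36 on the WT arrays. The groups overlapped (difference -0.41, SE 0.25, limma adjusted p = 0.475). Which part of Irgm1 was removed is not in the labels. The signal therefore does not test the genotype, and the arrays are named by their labels.

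Of the cell type checks, the stem cell list held 11 markers, of which 9 had a probe set, among them Kit, Procr and Meis1. All 9 lay above the bacterial control probe sets on every array of both groups. Their sum on the linear scale was lower in Irgm1-/-, at 22700 to 25600 on the Irgm1-/- arrays and 28500 to 32400 on the WT arrays, and the groups did not overlap. Limma called 0 of the 9, with a median difference of -0.32. At an unadjusted p under 0.05, 4 lay lower, namely Cd34, Procr, Hlf and Kit, and 1, Slamf1, higher. Over all tested genes 10% were lower and 8.51% higher by that measure. Of 18 listed T and NK cell genes, 16 had a probe set, 10 were tested, 5 were called higher and 0 lower. Over all tested probe sets 0.664% were called higher and 0.722% lower. Ccl5, Gzmb, Thy1, Ms4a4b and Klrd1 were called, whereas Cd2, Cd3e, Cd247, Nkg7 and Lat were not. Summed on the linear scale, the 16 genes reached 9560 to 20600 on the Irgm1-/- arrays, highest on replicate 3, against 646 to 1110 on the WT arrays. Ccl5 weighed most in this sum on the Irgm1-/- arrays, with log2 values of 12.81, 12.77 and 13.52, against 8.69, 7.33 and 8.29 in WT. On the WT arrays Cd3d, Cd3g, Cd5, Zap70, Ncr1 and Prf1 stayed at or below the control probe sets. Ncr1, Prf1 and, by its brightest probe set, Zap70 did so on every Irgm1-/- array as well, and Cd5 on all but replicate 3. Of 9 monocyte and macrophage genes, 8 had a probe set, 7 were tested, 2, Ms4a6b and Ms4a6c, were called higher and 0 lower. At an unadjusted p under 0.05, 3 were higher and 1, Cd14, was lower (-1.25, limma adjusted p = 0.0518), with all Irgm1-/- arrays below all WT arrays. Lyz2 differed by -0.04. The sum of the 8 genes was 2900 to 4630 on the Irgm1-/- arrays and 2500 to 4110 on the WT arrays. Itgam stayed at or below the control probe sets on every array of both groups. Limma called 0 of the tested B cell, neutrophil and erythroid genes. The B cell sum was 127 to 141 on the Irgm1-/- arrays and 137 to 209 on the WT arrays, highest on WT replicate 1. Probe set 1423226_at of Ms4a1, not part of that sum, was 6.99 on WT replicate 1 and at most 2.40 elsewhere. The neutrophil sums were 104 to 241 and 101 to 241, and the erythroid sums 42.1 to 61 and 33.1 to 44, Irgm1-/- first. T cells, NK cells and macrophages also express Gbp genes, and the part of these cells, and of the lower stem cell sum, in the results below was not tested. In sorted populations measured in bulk, fewer cells of a type and less RNA per cell cannot be told apart, and likewise more cells and more RNA. The 3' actin control exceeded the 5' actin control, a measure of transcript coverage, and the log2 gap was 2.81 to 3.56 on the Irgm1-/- arrays and 2.57 to 3.16 on the WT arrays.

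Gbp3, of the chromosome 3 cluster whose loss leaves mice more susceptible to Toxoplasma, was the only member called higher. Its probe set 1418392_a_at gave log2 values of 12.25, 12.50 and 12.27 on the Irgm1-/- arrays, against 11.26, 11.30 and 11.18 on the WT arrays. All 3 Irgm1-/- arrays lay above all 3 WT arrays, and the spread within each group was small beside the gap. The means were 12.34 ± 0.14 in Irgm1-/- and 11.25 ± 0.06 in WT (SD, n = 3 each), a difference of 1.09 on the log2 scale (SE 0.12, 95% interval 0.82 to 1.37) or 2.14-fold, with adjusted p = 0.009 by limma. It was the 1 call among the 8 tested probe sets, where 0.664% of all 22580 tested probe sets were called higher and 0.722% lower. The call was lost without WT replicate 1 (difference 1.10, limma adjusted p = 0.0758) and without WT replicate 2 (1.12, limma adjusted p = 0.0725). Without Irgm1-/- replicate 3 the difference was 1.13 (limma adjusted p = 0.0253). The T and NK cell sum was highest on that array but at least 9560 on every Irgm1-/- array, against at most 1110 in WT. The part of these cells was therefore not tested by leaving that array out.

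Gbp7, which in mouse macrophages takes part in defence against bacteria and in assembly of the phagocyte oxidase, was read by a pair of probe sets. Probe set 1434380_at gave 11.25, 11.76 and 11.13 on the Irgm1-/- arrays, against 10.43, 10.50 and 10.48 on the WT arrays. Probe set 1425156_at gave 11.41, 11.71 and 11.59 on the Irgm1-/- arrays, against 11.01, 10.81 and 10.21 on the WT arrays. In both, every Irgm1-/- array lay above every WT array. The spread differed, being wide among the Irgm1-/- arrays in the first (SD 0.33, against 0.04 in WT, n = 3 each) and wide among the WT arrays in the second (SD 0.15 in Irgm1-/- and 0.42 in WT, n = 3 each). The differences were 0.91 (SE 0.18, 95% interval 0.50 to 1.32, limma adjusted p = 0.0623) and 0.89 (SE 0.22, 95% interval 0.39 to 1.40, limma adjusted p = 0.111), so neither passed the threshold although both sizes were near that of Gbp3.

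Gbp2, which in mouse cells coats the vacuole of Toxoplasma gondii, was also read by a pair of probe sets, and its groups overlapped in both. Probe set 1418240_at gave 9.05, 9.74 and 9.40 on the Irgm1-/- arrays, against 9.18, 9.17 and 8.15 on the WT arrays. Probe set 1435906_x_at, whose suffix marks probes that can match other transcripts, gave 11.18, 11.64 and 11.43 on the Irgm1-/- arrays, against 11.41, 11.16 and 10.69 on the WT arrays. In each, WT replicate 3 was the lowest array and Irgm1-/- replicate 1 lay within the range of the WT arrays. The differences were 0.57 (SE 0.32, limma adjusted p = 0.428) and 0.33 (SE 0.21, limma adjusted p = 0.478). Their 95% intervals, -0.18 to 1.31 and -0.15 to 0.82, include both 0 and, for the first, the size seen for Gbp3.

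Gbp2b, long called Gbp1 in the mouse, had values between 1.67 and 1.73 on all 6 arrays. All lay below the bacterial control probe sets, whose highest value per array was 3.00 to 3.18. The transcript was not detected by this probe set in either group, so no fold is given, and whether Gbp2b differed cannot be read from these arrays.

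**Figure D1:**
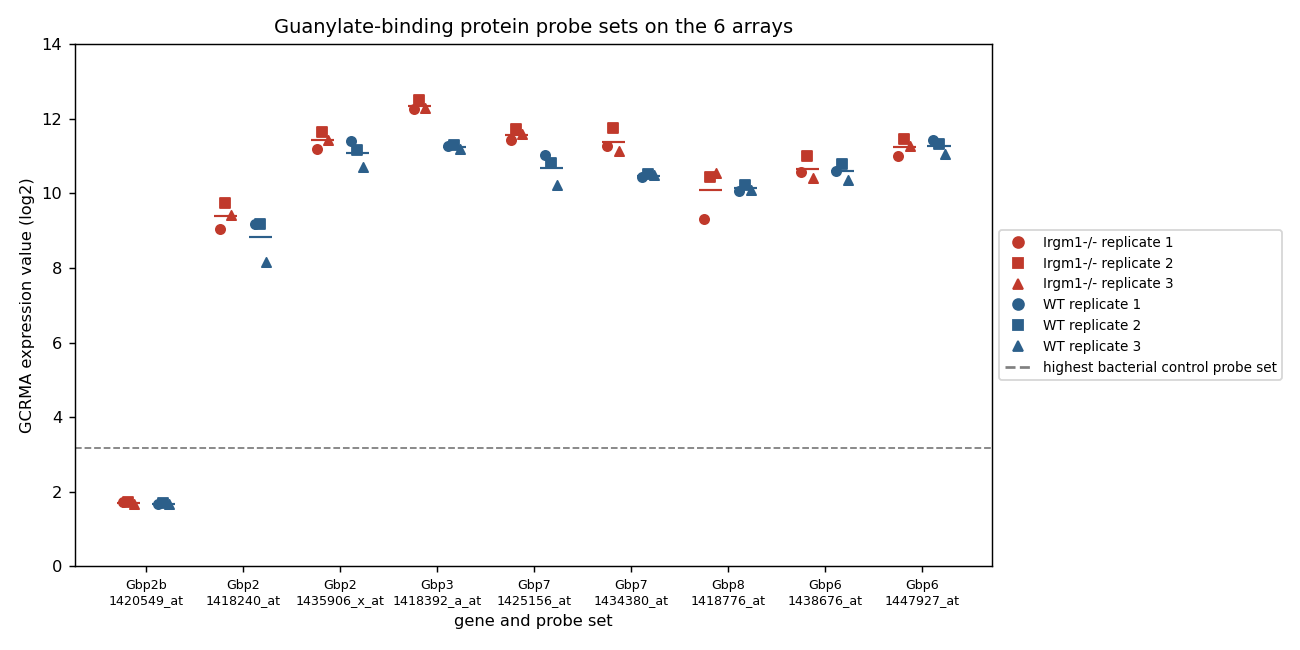
Log2 expression value (vertical axis) of each of the 9 probe sets (horizontal axis) on the 3 Irgm1-/- arrays (red, left) and the 3 WT arrays (blue, right). Points are arrays, marked by replicate, short lines are group means and the dashed line is the highest bacterial control value of the 6 arrays. Gbp3 and both Gbp7 probe sets show 3 red points above all blue points, and Gbp2b lies below the dashed line.

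The chromosome 5 members showed no difference past the threshold. Gbp6, one of the members that protect mouse macrophages against Listeria, gave 10.56, 11.00 and 10.42 with probe set 1438676_at on the Irgm1-/- arrays, against 10.61, 10.79 and 10.36 on the WT arrays. With probe set 1447927_at it gave 11.00, 11.46 and 11.25 on the Irgm1-/- arrays, against 11.42, 11.32 and 11.06 on the WT arrays. The groups lay within each other's range to a large extent. The differences were 0.07 (SE 0.19, 95% interval -0.37 to 0.52, limma adjusted p = 0.887) and -0.03 (SE 0.16, 95% interval -0.41 to 0.35, limma adjusted p = 0.951). Both intervals end below the lower bound of 0.82 for Gbp3.

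Gbp8 gave 9.31, 10.43 and 10.55 on the Irgm1-/- arrays, against 10.07, 10.23 and 10.10 on the WT arrays. Irgm1-/- replicate 1 lay below and the other Irgm1-/- arrays above all WT arrays, so the spread in Irgm1-/- (SD 0.69) was larger than in WT (SD 0.08, n = 3 each). The difference was -0.04 (SE 0.31, 95% interval -0.77 to 0.70, limma adjusted p = 0.966). Without Irgm1-/- replicate 1 it was 0.36 (limma adjusted p = 0.444).

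**Figure D2:**
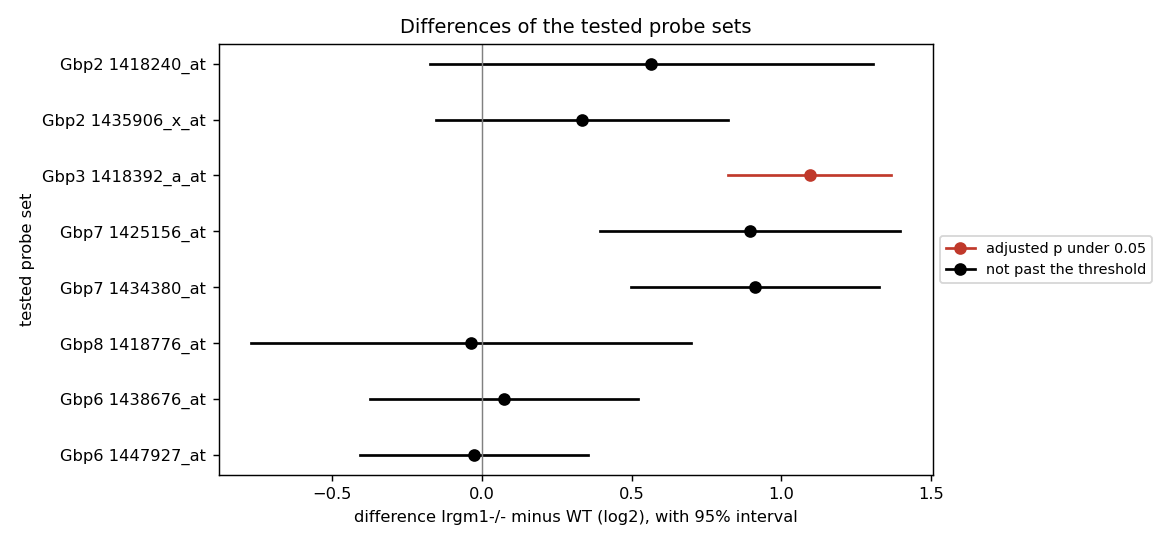
Difference Irgm1-/- minus WT on the log2 scale (horizontal axis) with its 95% interval for the 8 tested probe sets (vertical axis). Red marks the probe set past the adjusted p threshold of 0.05, which is Gbp3 at 1.09. The Gbp7 intervals lie above 0 without passing that threshold, and those of Gbp2, Gbp6 and Gbp8 include 0.

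Over the 8 tested probe sets the median difference was 0.45, beside 0.01 over all 22580. The 3 probe sets of Gbp3 and Gbp7 had all Irgm1-/- arrays above all WT arrays, 0 had them all below and 5 overlapped, where 11.5% of all tested probe sets had all Irgm1-/- arrays above and 11% all below. With 1 probe set per gene, the tested one with the highest mean, the median of the 5 tested genes was 0.33 and that of 10374 tested genes 0.003. These probe sets share arrays and in part a gene, and the genes are close relatives whose probes may hybridise with each other's transcripts, so the counts are descriptions and not independent events.

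How far the members differed from each other in response was examined within arrays, where a shift shared by all probe sets of an array cancels. For the 5 tested genes, the difference between a pair of genes was taken on each array and compared between the groups. Of 10 pairs, 7 had no overlap between Irgm1-/- and WT arrays, and each of these had exact permutation p = 0.1 (2-sided), the smallest that 3 against 3 arrays allow, and p = 0.143 after adjustment over the 10 pairs. An exact permutation of 3 against 3 arrays cannot reach 0.05, so the pairs are described by their sizes. The 10 pairs come from 5 genes, so a shift of a single gene enters several pairs and the count is not of independent events. How often pairs of other tested genes lack overlap was not counted. The response of Gbp3 exceeded that of Gbp6 by 1.12 and that of Gbp8 by 1.13, and the response of Gbp2 minus that of Gbp3 was -0.76. The response of Gbp7 exceeded that of Gbp8 by 0.93. Between Gbp3 and Gbp7 the responses differed by 0.20 with overlapping arrays (exact permutation p = 0.4), and between Gbp6 and Gbp8 by 0.01 (exact permutation p = 1).

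The members shared much of their order among the arrays of a group. Irgm1-/- replicate 2 was the highest of its group for 7 of the 8 tested probe sets, Gbp8 being the exception, whereas over all tested probe sets that array was highest in 32.1%. Irgm1-/- replicate 1 was lowest of its group for 6 of 8 (33.6% over all). WT replicate 3 was lowest of its group for 6 of 8 and was highest for 0 (38.9% and 35.1% over all). The T and NK cell sum peaked on Irgm1-/- replicate 3, which was the highest of its group for Gbp8 alone. That sum was above the WT range on every Irgm1-/- array, and the part of these cells was not tested.

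The genes were then placed in chromosome order by the RefSeq gene table of GRCm38.p6, used for order only. On chromosome 3 the tested members follow each other as Gbp7, Gbp3 and Gbp2, with differences of 0.89, 1.09 and 0.33. The 3 nearest tested genes on either side of each cluster were read as well. Limma called 0 of these 12 flanking genes. At an unadjusted p under 0.05, 0 were higher and 3 were lower in Irgm1-/-, where 8.51% of all 10374 tested genes were higher and 10% lower by that measure. Their differences ran from -0.99 for Abcg3, next to the chromosome 5 cluster, to 0.36 for Rap1gds1, next to that on chromosome 3. The immediate tested neighbours of the chromosome 3 members, Pdlim5 and Kyat3, differed by -0.55 (limma adjusted p = 0.231) and 0.17 (limma adjusted p = 0.775).

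**Figure D3:**
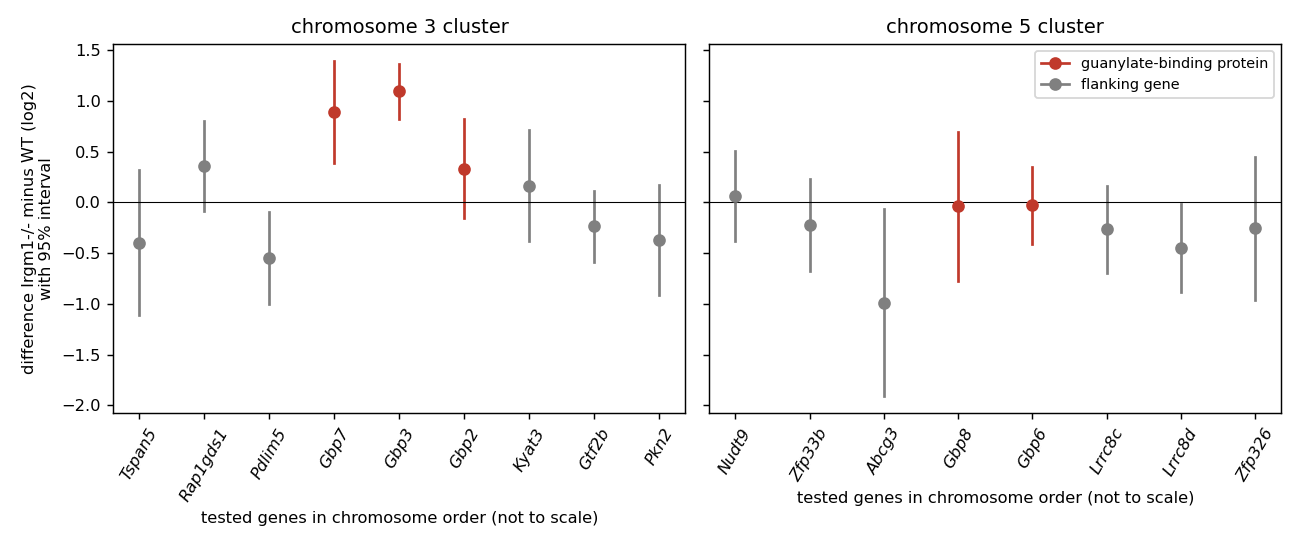
Difference Irgm1-/- minus WT on the log2 scale with its 95% interval (vertical axis) for tested genes in chromosome order, not to scale (horizontal axis), around the Gbp clusters of chromosome 3 (left) and chromosome 5 (right). Red marks Gbp genes and grey the flanking genes. Gbp7 and Gbp3 stand at 0.89 and 1.09, while the flanking genes lie between -0.99 and 0.36 and Gbp8 and Gbp6 close to 0.

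Because Gbp genes are known targets of interferon signalling, the promoter windows in the RefSeq table were searched for its motifs. Entries of 300 bases, 250 before and 50 after the annotated start, matched 4 of the 7 genes by symbol, namely Gbp2, Gbp2b, Gbp3 (with 2 starts) and Gbp7. No entry was found under the symbols Gbp6, Gbp8 and Gbp9, so the promoters of the chromosome 5 members were not searched. The core of the interferon-stimulated response element (ISRE), bound by interferon regulatory factors and their complex with STAT factors, was searched as GAAA, any 2 bases and GAAA again, on both strands. The gamma-activated site (GAS), bound by STAT dimers, was searched as TTC, any 3 bases and GAA, which reads the same on both strands. An ISRE core was found in 4 of the 5 entries and in each of the 4 genes, where 3.44% of 32851 promoter entries hold one. A GAS was found in 1 of the 5 entries, where 8.3% of all entries hold one.

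The stretches below show these matches in the genes whose responses are described above, as 80 bases centred on the ISRE core, 5' to 3' on the plus strand, which is the strand of all 4 genes. Capitals mark the motifs. The ISRE core lies on the minus strand in every case, so it reads as TTTC, 2 bases and TTTC.
Gbp7, GRCm38.p6 chr3:142530248-142530327, plus strand: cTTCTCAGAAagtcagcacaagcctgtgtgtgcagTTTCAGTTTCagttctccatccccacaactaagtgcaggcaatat
Gbp3 first start, GRCm38.p6 chr3:142559967-142560046, plus strand: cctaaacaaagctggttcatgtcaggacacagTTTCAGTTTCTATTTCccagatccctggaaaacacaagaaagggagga
Gbp2, GRCm38.p6 chr3:142620569-142620648, plus strand: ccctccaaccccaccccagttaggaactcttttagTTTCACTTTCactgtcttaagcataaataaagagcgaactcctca
Gbp2b, GRCm38.p6 chr3:142594675-142594754, plus strand: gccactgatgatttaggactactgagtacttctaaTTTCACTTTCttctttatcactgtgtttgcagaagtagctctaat

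In Gbp3 a pair of ISRE cores overlap, from 45 to 36 and from 39 to 30 bases before the first start, and they form the single capital run of its line. The core of Gbp7 lies 53 to 44 bases, that of Gbp2 59 to 50 bases and that of Gbp2b 137 to 128 bases before the start. Gbp7 holds 2 GAS matches, from 87 to 79 bases before the start, in capitals near the left end of its line, and from 106 to 98, outside the stretch. The core is thus present in Gbp3, which was called, in Gbp7 and Gbp2, which were not, and in Gbp2b, which was not detected. A match of these letters is a description and not a shown binding site.

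**Figure D4:**
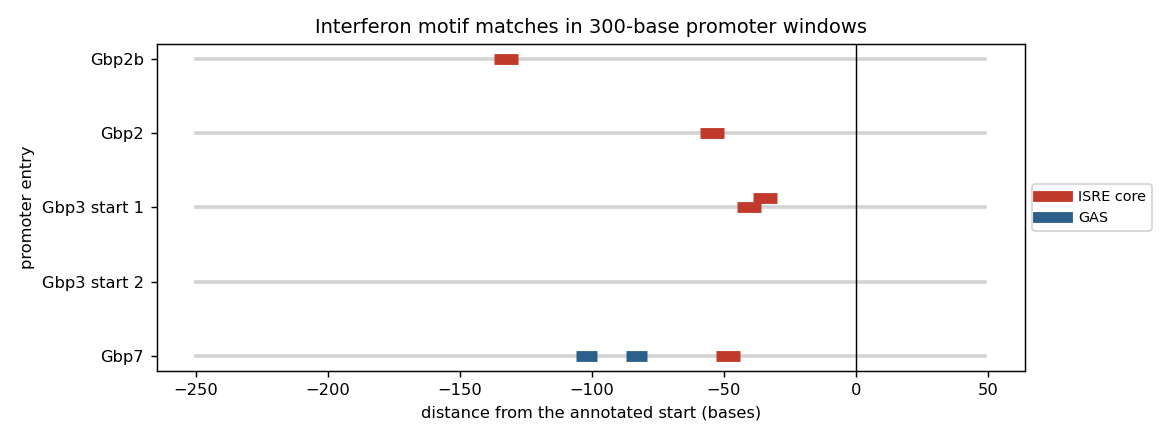
Positions of ISRE cores (red) and GAS matches (blue) in the 5 promoter entries of Gbp genes (vertical axis), by distance in bases from the annotated start (horizontal axis). The grey line is the searched window of 300 bases. The cores of Gbp2, Gbp3 and Gbp7 lie within 59 bases of the start and that of Gbp2b farther away, at 137 to 128.

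Genes that act with the Gbp family were read from lists chosen by function, with the brightest tested probe set standing for each gene. Of 18 tested genes of the signalling that induces Gbp genes, 1 rose, 0 fell and 17 did not pass, with a median difference of 0.12. At an unadjusted p under 0.05, 5 were higher and 1 lower, beside 8.51% and 10% over all tested genes. Limma called 0.664% of all tested probe sets higher and 0.722% lower. The member that rose was Usp18, which restrains the type I interferon receptor and is itself interferon-induced, with values of 6.65, 7.37 and 7.63 on the Irgm1-/- arrays, against 4.06, 4.62 and 4.04 on the WT arrays (difference 2.98, SE 0.29, limma adjusted p = 0.00737). Its call was lost without WT replicate 1 (limma adjusted p = 0.0663). Interferon gamma itself, Ifng, named after its values were seen, gave 6.28, 5.53 and 8.54 on the Irgm1-/- arrays, against 3.97, 2.79 and 3.98 on the WT arrays. Its groups did not overlap and its peak was on replicate 3, the array with the highest T and NK cell sum, and it did not pass (difference 3.21, SE 0.73, limma adjusted p = 0.1). The value on WT replicate 2 lay below the control probe sets of that array, so Ifng was above them on 5 of the 6 arrays. The size of the difference thus rests in part on a value not above background. The 5 higher at an unadjusted p under 0.05 were Usp18, Ifng, Nlrc5, Ifnar1 and Batf2. The 1 lower was Irf8 (-0.68, limma adjusted p = 0.257), with all Irgm1-/- arrays below all WT arrays. Ifngr1, Ifngr2, Jak1 and Irf1 differed by -0.16, -0.31, -0.33 and -0.07, and Jak2 by 0.24. Of the 18 differences, 10 lay above 0.

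Of 7 tested immunity-related GTPases, the family of Irgm1, 1 rose, 0 fell and 6 did not pass, with a median of 0.32. Of all tested probe sets 0.664% rose and 0.722% fell. At an unadjusted p under 0.05, 2 were higher and 0 lower, beside 8.51% and 10% over all tested genes. Gm4951 rose, with 9.13, 9.55 and 9.09 on the Irgm1-/- arrays, against 7.99, 7.97 and 7.18 on the WT arrays (difference 1.54, SE 0.26, limma adjusted p = 0.0453). Its call was lost without any 1 of the 6 arrays (limma adjusted p = 0.0678 to 0.149). As for most Gbp probe sets, its highest array was Irgm1-/- replicate 2 and its lowest WT replicate 3. Iigp1 did not pass by its brightest probe set, 1419043_a_at (0.92, limma adjusted p = 0.263). Its other probe set, 1419042_at, was called higher (1.49, limma adjusted p = 0.0366). In both, all Irgm1-/- arrays lay above all WT arrays.

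Of 6 tested inflammasome genes that act downstream of Gbp proteins, 1 rose, 0 fell and 5 did not pass, with a median of 0.18. Of all tested probe sets 0.664% rose and 0.722% fell. At an unadjusted p under 0.05, 2 were higher and 0 lower, beside 8.51% and 10% over all tested genes. Casp1, the protease that matures interleukin 1 beta, gave 9.17, 9.41 and 9.10 on the Irgm1-/- arrays, against 8.24, 8.30 and 8.16 on the WT arrays, and rose by 0.99 (SE 0.16, limma adjusted p = 0.0345). Its call was lost without any 1 of the 6 arrays (limma adjusted p = 0.0524 to 0.143). The 10 tested genes of the conjugation machinery, through which ATG8 family proteins help to bring Gbp proteins to vacuoles, had a median of -0.29. Limma called 0 of them, with unadjusted p under 0.05 for 1 higher and 3 lower, beside the shares of 8.51% and 10% over all tested genes. By the brightest probe sets the smallest p belonged to Gabarapl1 (-0.78, limma adjusted p = 0.061) and Map1lc3a (-0.44, limma adjusted p = 0.171), both ATG8 family genes. The brightest probe set of Map1lc3b, 1415928_a_at, gave -0.32 (limma adjusted p = 0.227), and its probe set 1415929_at gave -0.74 (limma adjusted p = 0.0664). In both, all Irgm1-/- arrays lay below all WT arrays, whereas 1415930_a_at and 1428024_at of that gene gave 0.31 and 0.09. Of 5 tested genes of the lipid modification that anchors Gbp2 and Gbp2b in membranes, limma called 0 by the brightest probe sets. These had 0 at an unadjusted p under 0.05 and a median of 0.04. Among them the smallest p belonged to the transferase subunit Fnta (-0.19, limma adjusted p = 0.424) and the methyltransferase Icmt (0.28, limma adjusted p = 0.652). Less bright probe sets of Fnta (1417465_at, -0.28) and Pggt1b (1438229_at, -0.37) lay lower at an unadjusted limma p of 0.030 and 0.037. Of the dynamin-superfamily relatives 2 were tested and limma called 0, with 1 at an unadjusted p under 0.05, the antiviral GTPase Mx1 (0.76, limma adjusted p = 0.145), beside the atlastin Atl3 (0.06, limma adjusted p = 0.912).

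The genes whose pattern lay nearest to that of Gbp3 over the 6 arrays were found by the root-mean-square distance between log2 values, each centred on its own mean, among the tested genes. The nearest was Casp1, at a distance of 0.0603. It was followed by the adaptor Fyb at 0.0842, the syntrophin Sntb2 at 0.116, the kinetochore gene Spc24 at 0.117 and the homeobox gene Hoxb2 at 0.124. No other Gbp gene was among the 5 nearest. All 5 were called higher, with differences from 0.97 for Hoxb2 to 1.15 for Fyb, which the distance to a called gene favours.

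The call of Gbp3 and the near misses of Gbp7 moved with the setting, as the plot of adjusted p by setting shows. Gbp3 kept a difference between 1.02 and 1.14 in all 15 alternatives and passed in 12. Probe set 1434380_at of Gbp7 passed in 2 of 15, with differences of 0.72 to 1.03, and probe set 1425156_at in 1 of 15, with differences of 0.66 to 1.06.

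**Figure D5:**
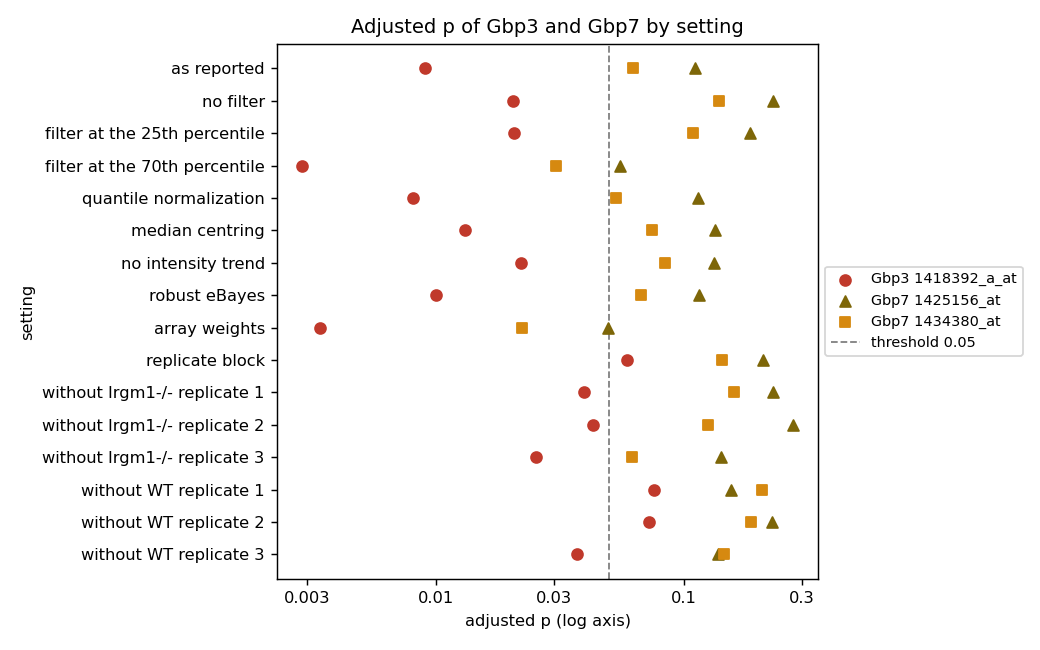
Adjusted p from limma (horizontal log axis) of Gbp3 and the Gbp7 probe sets as reported and in each of 15 alternative settings (vertical axis), with the threshold of 0.05 dashed. Gbp3 lies left of the threshold except with the replicate block and without WT replicate 1 or 2, and Gbp7 lies left of it with array weights and, for 1434380_at, with the filter at the 70th percentile.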

How the data were processed

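Gene expression was measured on 6 one-colour oligonucleotide arrays, 3 per group. The deposited values are log2 expression values per probe set, for which the submitters' processing notes name GCRMA. This method corrects background by probe sequence, normalises between arrays and summarises probe sets, which leaves undetected probe sets in a narrow low band. Version and settings of GCRMA were not stated in labels or notes. That the scale is log2 follows from the range of the values. Symbols came from the platform table, updated by gene identifier (34754 of 34958 probe sets with 1 symbol matched RefSeq, 932 had several symbols and 9211 none).

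Probe sets above the array median (50th percentile) in at least 3 of 6 arrays were tested, 22580 in all. The comparison used limma 3.58.1 under R 4.3.3 (lmFit, eBayes with trend, 2-sided, Benjamini-Hochberg over all tested probe sets, adjusted p under 0.05). The fit was tested on simulated data, and other filters, normalisations, variance models, weights, a replicate block and leaving out arrays were tried. The control level is the highest bacterial control probe set of each array. All members were named, with Irgm1, the called members of each list or else up to 2 with the smallest p, and the 5 genes nearest to each called Gbp gene. The members and lists were chosen with earlier results of these data known, and the flanking genes by position after values were seen. Precision is limited by having 3 arrays in each group.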

Additional observations from a re-analysis of the deposited data

How the results depend on the processing

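The count of Gbp probe sets called by limma was 1 and stayed 1 with no filter, a filter at the 25th percentile, quantile normalization, median centring, no intensity trend and robust eBayes. It was 2 with a filter at the 70th percentile, where 1.41% of all tested probe sets were called higher and 1.18% lower. With array weights it was 3, beside 1.78% higher and 2.05% lower over all. At an adjusted p threshold of 0.1 it was 2, beside 1.39% higher and 1.4% lower. It was 0 to 1 when each array was left out in turn and the filter reapplied. With the replicate block it was 0, with 3 probe sets at an unadjusted p under 0.05, and Gbp3 was then at 1.09 with limma adjusted p = 0.059. It was also 0 without WT replicate 1 and without WT replicate 2, each with 3 at an unadjusted p under 0.05. The share of all tested probe sets under that unadjusted p was not counted in these settings. Leaving out an array leaves fewer arrays; other causes were not tested. Same-numbered arrays did not deviate together (correlations of -0.109, -0.0179 and -0.276 over tested probe sets), so the numbers were not taken as pairs. Over all tested probe sets 313 were called, against 103 with no filter, 126 with the 25th percentile and 355 with the 70th. The count was 864 with array weights, 68 with the replicate block and 629 at the threshold of 0.1. With an array left out it was 19 to 250, lowest without WT replicate 2. Differences close to 0 changed sign when an array was left out. They ran from -0.0966 to 0.194 for Gbp6 probe set 1438676_at, from -0.137 to 0.0903 for Gbp6 probe set 1447927_at and from -0.26 to 0.36 for Gbp8. Gm4951 and Casp1 lost their calls with no filter, where their lists had 0 calls. Leaving out arrays for Usp18, Gm4951 and Casp1 was an alternative chosen after seeing the data. By the probe set with the smallest p, 2 immunity-related GTPases were called, Gm4951 and Iigp1. Gbp2b lay below the control level on all 6 arrays, so signal over background limits what can be read for it.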
